A study of Rattus norvegicus with 8 samples.

Results

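The potassium channel genes described here are every gene on the arrays whose name starts with Kcn once the endings predicted and mapped are taken off. They numbered 86 genes, read by 106 of the 41012 probes besides controls, and 15 of them had more than 1 probe. Of the 106 probes, 84 carried an accession found in the RefSeq table, and the symbol there was the same for all 84. The genes Csen and Tresk-2, older names of Kcnip3 and Kcnk18, fall outside that rule and are not counted as members.

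The study asked how hippocampal neurons that die after a traumatic brain injury differ from neighbours that survive it. RNA came from pools of pyramidal neurons of the CA3 field, cut by laser from frozen sections of male Sprague-Dawley rats, with no age in the labels. Injured rats had a moderate fluid percussion injury, in which a pulse of fluid strikes the exposed dura, and their brains were taken after 24 h. Dying neurons took up Fluoro-Jade, a fluorescent stain for degenerating neurons, and surviving neurons from injured rats did not. Sham rats had the surgery without the fluid pulse, and naive rats had no treatment. Each pool of surviving or dying neurons held about 600 cells from at least 3 rats, so that rats within a pool cannot be told apart. Every group had 2 single-colour Agilent arrays, each from 1 pool.

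A level is given here as the log2 of a probe's deposited intensity over the median of its array, so that 0 marks the median probe, and levels of different probes are not set against each other, except to name the brightest probe of a list of markers. The median intensity was 28.8 and 22.7 on the naive arrays, 16.5 and 16.4 on the sham arrays, 52.4 and 48.3 on the surviving arrays and 19.4 and 53.0 on the dying arrays. The lowest intensity of a probe marked as well above background was 13.3 and 14.8 on the sham arrays and 10.6 and 15.6 on the surviving arrays. A gene near the median of its array thus lay close to the limit of detection in sham and well clear of it in surviving neurons. The arrays of naive and sham rats shared 1 slide and the arrays of injured rats another, and every comparison with sham therefore mixes injury with slide. The difference between surviving and dying neurons and that between sham and naive rats lie within 1 slide each.

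The dying arrays stood further apart from each other than the sham or surviving arrays did. Counting only Kcn genes that both replicates detected well above background, 15 of 49 in dying neurons differed over 2-fold between replicates (30.6%, against 39.0% of all such probes). The same held for 14 of 45 genes in naive rats (31.1%, against 29.1%), where 2 more detected genes have no value on replicate 1 because the spot was marked non-uniform, 3 of 46 in sham (6.52%, against 6.71%) and 7 of 58 in surviving neurons (12.1%, against 12.6%). Several results that rest on 1 dying array are also given without it.

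Potassium channels let potassium leave or enter a cell along its gradient and so set its resting potential, end its action potentials and limit how often it fires. Voltage-gated, inward-rectifying, two-pore and calcium-activated channels are built from separate subfamilies of pore-forming subunits, and auxiliary subunits tune their gating and traffic. In hippocampal pyramidal neurons A-type, M-type, calcium-activated and G-protein-gated potassium currents are known to hold back excitation, while other Kcn genes serve mainly glia, vessels or immune cells.

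Most members could be read in these pools. On all 8 arrays 34 genes were well above background, 42 were so on some arrays and 10 on none. Among the undetected genes were Kcna7, Kcne2, Kcne4, Kcnh8, Kcnip1, Kcnj1, Kcnj2, Kcnmb2 and Kcnrg. As the plot of detected genes by group shows, both arrays were above background for 47 genes in naive, 46 in sham, 58 in surviving and 49 in dying neurons. These are 54.7%, 53.5%, 67.4% and 57.0% of the 86 genes, beside 48.5%, 46.7%, 63.5% and 55.8% of all probes. Kcna6, Kcna10, Kcnh5, Kcnk3 and Kcnmb3 were above background on all 4 arrays of injured rats and on no naive or sham array. Conversely, Kcnb2 was above background on all 4 naive and sham arrays and on no dying array. Kcnk1 was the 1 gene above background on both surviving arrays and on neither dying array, and 0 genes showed the opposite. The shares of all probes with these patterns were not counted. The limit of detection lay nearer to the array median in sham than in surviving neurons, and nothing particular to potassium channels is read from these patterns.

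**Figure D1:**
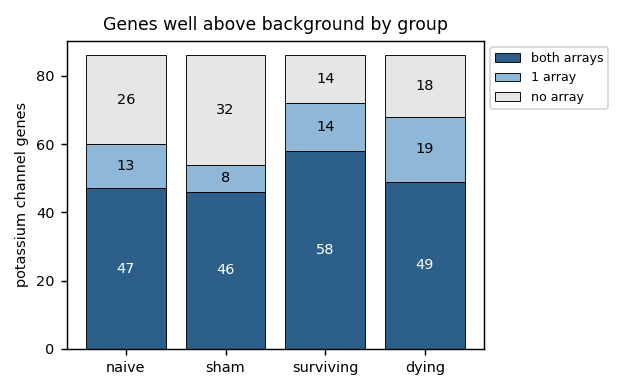
Number of potassium channel genes (vertical axis) well above background on both arrays, on 1 array or on no array of each group. Surviving neurons had 58 genes on both arrays, and the other 3 groups had between 46 and 49.

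Surviving against dying neurons is the comparison within the injured rats. The difference that came nearest to a call was that of Kcnk1, a weakly rectifying two-pore channel, which was higher in surviving neurons. The calcium-activated channel Kcnma1, the G-protein-gated Kcnj6 and the silent subunits Kcng1 and Kcnv1 were also higher there on both arrays, and Kcnk2 and Kcnn4 were lower. However, limma called 0 of 60 tested genes at an adjusted p of 0.05, where 0% of 27404 probes were called, and the smallest adjusted p of a Kcn gene was 0.107. At an unadjusted p under 0.05 the count was 7 higher and 3 lower in surviving neurons, where 10.8% and 10.3% of all probes tested passed. Both arrays of 1 group lay above both of the other for 21 genes higher in surviving neurons and 8 lower, against 30.7% and 21.6% of all probes. The median difference over the 60 genes was 0.45 on the log2 scale, beside 0.15 over all probes tested. It was 0.042 beside 0.030 where probes had to be above background on all arrays compared, 0.12 beside -0.068 with no filter on background, 0.11 beside -0.19 with scaling to RefSeq probes and 0.34 beside 0.36 with a normexp background correction. Without dying replicate 2 the fit called 13 of 60 Kcn genes, 10 higher and 3 lower in surviving neurons, beside 19.9% of all probes, with 20 and 5 at an unadjusted p under 0.05. Without dying replicate 1 it called 0, with 3 genes higher at an unadjusted p under 0.05 and a median difference of 0.09. The unadjusted counts were also 4 higher without surviving replicate 1 and 1 lower without surviving replicate 2. Counts and medians stand in for a test of the family as a whole, which was not made.

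Dying against sham neurons gave the most calls. In dying neurons 5 of 59 tested genes rose and 13 fell, against 14.7% and 28.6% of 25629 probes. The 5 that rose were Kcnn4, Kcna6, Kcnk3, Kcna10 and Kcnk9. Among those that fell were Kcnma1, Kcnh2, Kcnab1, Kcnj6, Kcnn2, Kcnv1, Kcnc2, Kcnb2, Kcna4, Kcns3, Kcng1 and Kcnq3. For 13 genes both dying arrays lay above both sham arrays and for 31 below, against 30.8% and 45.9% of all probes. The share of genes called was thus below that of all probes in both directions, while the 31 of 59 that lay below both sham arrays were a larger share than that of all probes, and nothing particular to potassium channels is read from it. The median difference was -0.95, beside -0.47 over all probes tested. Without dying replicate 1, where 70 genes were tested, it was -0.25, beside -0.29. The number of calls was 7 of 60 without sham replicate 1 (11.4% of all probes), 12 of 61 without sham replicate 2 (18.9%), 12 of 70 without dying replicate 1 (25.6%) and 27 of 59 without dying replicate 2 (49.2%). With any 1 of the 8 arrays left out, 7 of the 18 genes were still called in the same direction: Kcna6, Kcnk3 and Kcnn4 rose, and Kcnab1, Kcnh2, Kcnj6 and Kcnma1 fell. Of these, Kcna6 and Kcnk3 were undetected on both sham arrays and entered the test only through the injured arrays, so that only a rise could be seen. Under each of 5 other scalings of the arrays 10 of the 18 were called, these 7 with Kcna10, Kcnk9 and Kcnn2.

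Surviving against sham neurons gave 10 calls among 62 tested genes. Kcna6, Kcnk3, Kcnn4 and Kcna10 rose and Kcnh2, Kcna4, Kcnc2, Kcnab1, Kcnk2 and Kcnn2 fell, 4 and 6 genes against 6.47% and 11.3% of 26910 probes. Both surviving arrays lay above both sham arrays for 19 genes and below for 30, against 28% and 49.1% of all probes. The median difference was -0.61, beside -0.43 over all probes tested. It was -0.31 without surviving replicate 1 and -0.28 without surviving replicate 2, beside -0.43 and -0.24 over all probes. Most calls were lost where 1 sham or surviving array was left out, which leaves 1 array in that group. Calls over all probes fell in the same fits. Without either dying array there were more calls, in the family and over all probes. None of the 10 genes was called in every fit that left out 1 array, while 5 of them, Kcna4, Kcna6, Kcnh2, Kcnk3 and Kcnn4, were called under each of the 5 other scalings. This comparison and the preceding one share the 2 sham arrays, so that they are not independent of each other.

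How the arrays are scaled sets how many genes lie on each side of sham. Against median scaling, the other scalings moved the median of all probes in surviving against sham by 0.78 with the 75th percentile, 0.61 with quantile normalization, 0.88 in the authors' series values, 0.97 with the median of probes above background on all arrays and -0.20 with the median of RefSeq probes. In dying against sham the same shifts were 0.72, 0.68, 0.81, 1.01 and 0.15. As the bars of calls by setting show, the dying neurons had 8 genes higher and 8 lower with the 75th percentile, 7 and 7 with quantile normalization and 12 and 6 in the authors' series values. Of all probes 46%, 36.5% and 45.6% were called in these settings, in both directions together. The median difference of the Kcn genes in surviving against sham changed sign under 4 of these 5 scalings, to 0.16, 0.24, 0.27 and 0.36, and that in dying against sham under 1, to 0.06. With a normexp background correction 0 genes were called in either comparison, where limma also called 0 probes of the whole array. Each gene's difference below is relative to the median probe, and the direction of every called gene was the same under each scaling.

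**Figure D2:**
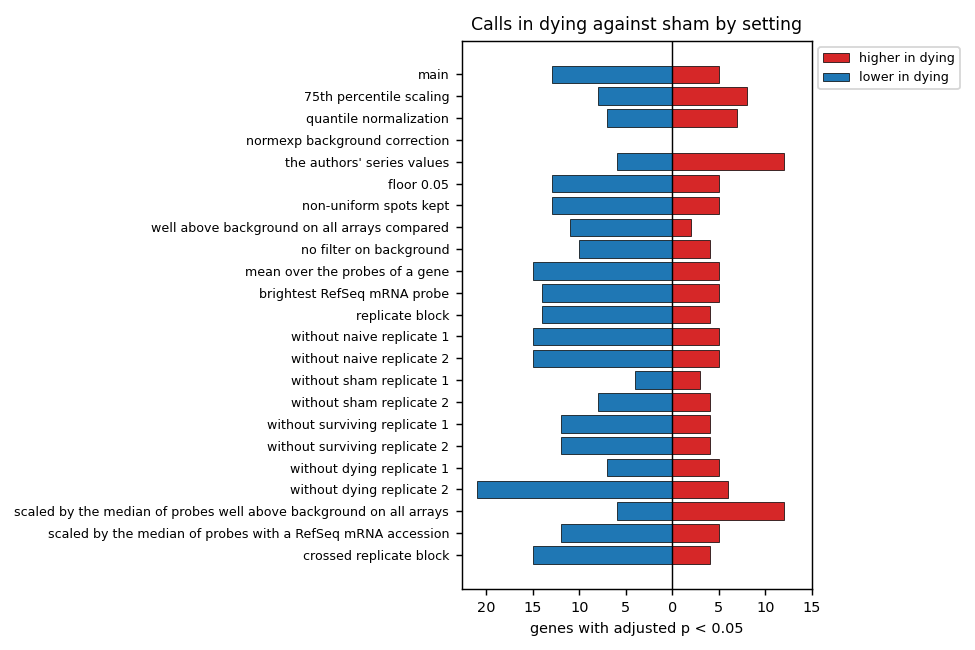
Number of potassium channel genes called in dying against sham neurons (horizontal axis; right, higher in dying; left, lower) under each setting. Median scaling gave 5 higher and 13 lower (43.3% of all probes called), while the authors' series values gave 12 and 6 (45.6%) and the normexp correction 0 (0%).

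Promoters are shown for Kcnma1 and Kcnj6, because both fell in dying neurons in every fit that left out 1 array and both hold a motif that was searched for. The RefSeq table of build GRCr8 held promoters of 56 of the 86 genes, taken as the 250 bases before each annotated start. Capitals mark the GC box, GGGCGG on either strand, a motif bound by Sp1 and related factors. That of Kcnma1 lies at chr15:351675-351924 on the plus strand and holds 5 GC boxes, counting overlaps, and that of Kcnj6 lies at chr11:47778349-47778598 on the minus strand and holds 1.
Kcnma1: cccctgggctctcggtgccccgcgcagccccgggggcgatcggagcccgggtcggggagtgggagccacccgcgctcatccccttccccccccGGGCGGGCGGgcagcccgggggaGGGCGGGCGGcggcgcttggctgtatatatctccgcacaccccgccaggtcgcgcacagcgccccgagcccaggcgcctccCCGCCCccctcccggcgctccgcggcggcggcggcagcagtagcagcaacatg
Kcnj6: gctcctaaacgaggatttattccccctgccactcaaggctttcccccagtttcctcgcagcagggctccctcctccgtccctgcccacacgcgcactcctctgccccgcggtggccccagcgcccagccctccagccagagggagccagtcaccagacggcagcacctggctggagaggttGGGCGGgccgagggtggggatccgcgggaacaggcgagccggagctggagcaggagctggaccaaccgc
Among all 33469 promoters 30.5% held a GC box, and among the 62 Kcn promoters 30 did. Of the genes that fell in dying neurons 7 had a promoter in the table, and a GC box was found in 3 of them, Kcnj6, Kcnma1 and Kcns3. Of those that rose 2 had a promoter there, with 0 GC boxes. The AP-1 motif TGANTCA, in 6.34% of all promoters, and the cyclic AMP response element TGACGTCA, in 1.59%, were found in 0 promoters of these 9 genes. A match is a description of the letters and not evidence of binding.

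Voltage-gated alpha subunits form the delayed rectifiers and A-type channels that repolarise the membrane. In dying against sham the counts by subfamily here, and those of markers and partners further on, stand beside 14.7% of all probes higher and 28.6% lower, and in surviving against sham beside 6.47% and 11.3%. Of 16 such genes 14 were tested in dying against sham, of which 2 rose and 4 fell, and 13 in surviving against sham, of which 2 rose and 2 fell. Within the injured rats limma called 0 of 12, with 0 at an unadjusted p under 0.05 in either direction. Kcna6, the Kv1.6 subunit, had levels of -1.67 and -2.20 on the sham arrays, 0.47 and 1.15 on the surviving arrays and 1.67 and 0.87 on the dying arrays. It was below the limit of detection on both sham and both naive arrays and above it on all 4 arrays of injured rats. With undetected arrays set at the lowest detectable signal, Kcna6 was at least 2.83-fold higher in dying neurons than in sham (adjusted p = 0.00321) and at least 2.05-fold higher in surviving neurons than in sham (adjusted p = 0.0144). Kcna10, the Kv1.8 subunit, had levels of -2.57 and -1.86 in sham, -0.30 and 0.00 in surviving neurons and 0.40 and -0.24 in dying ones. Both sham arrays, where it was undetected, read below all 4 injured arrays, which themselves lay near the limit of detection in sham, and the bounds were at least 1.24-fold in dying (adjusted p = 0.0170) and 1.05-fold in surviving neurons (adjusted p = 0.0493). The call of Kcna10 in dying neurons was lost without sham replicate 1, sham replicate 2 or dying replicate 1, with fitted differences of 1.94, 2.65 and 1.97. The calls in surviving neurons were lost without any 1 array of the compared groups, where the fitted difference of Kcna6 ran from 2.40 to 3.08 and that of Kcna10 from 1.71 to 2.42. For every gene given as a bound in this text, the p and any fitted difference rest on undetected signal in the dimmer group and do not test the bound, and such a gene entered the test only through the group in which it was brighter. Where 1 of 2 arrays of a group was above background, the differences, those with an array left out included, hold undetected signal too.

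Among the alpha subunits that fell was Kcna4, the Kv1.4 subunit of fast inactivating A-type channels. Its levels were 4.53 and 4.27 in sham, 1.94 and 1.94 in surviving neurons and 3.15 and 2.36 in dying ones. Surviving neurons lay lowest on both arrays, with a difference from sham of -2.46 ± 0.47 (SE, 2 arrays per group; 5.49-fold lower, adjusted p = 0.0154), and dying neurons lay between (-1.64 ± 0.47, 3.11-fold lower, adjusted p = 0.0241). The difference between surviving and dying neurons, -0.82 ± 0.47, was not called. Kcnc2, a fast delayed rectifier known from fast-spiking neurons, had levels of 0.55 and 0.47 in sham, -1.13 and -3.25 in surviving neurons and -3.14 and -1.90 in dying ones, and 1 of 2 arrays was above background in each injured group. Its differences from sham were -2.70 ± 0.74 in surviving (adjusted p = 0.0418) and -3.03 ± 0.73 in dying neurons (adjusted p = 0.0130), or at least 3.71-fold and 4.41-fold with the undetected arrays at their limit, but its naive levels of -1.83 and -1.72 were below background too. Kcnb2, a Kv2 delayed rectifier, had levels of 1.62 and 0.25 in sham, 1.26 and -1.55 in surviving neurons and -3.21 and -2.00 in dying ones. It was undetected on both dying arrays, at least 6.12-fold below sham (adjusted p = 0.0184).

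These calls were lost in fits that left out 1 array, which leaves 1 array in its group. In dying against sham they were lost without sham replicate 1 for Kcna4 (-1.51), Kcnc2 (-2.99) and Kcnb2 (-2.85), without sham replicate 2 for Kcna4 (-1.77) and Kcnc2 (-3.07), without dying replicate 1 for Kcnc2 (-2.41) and Kcnb2 (-2.93) and without dying replicate 2 for Kcna4 (-1.24). Kcna4 was also just short of a call without either surviving array (-1.64). In surviving against sham the calls of Kcna4 and Kcnc2 were lost without any 1 of the 4 arrays compared, with differences from -2.33 to -2.59 and from -1.64 to -3.76, and Kcnc2 was also not called without either naive array. Of the alpha subunits known from hippocampal neurons, Kcna1, Kcnc1, Kcnd2 and Kcnd3 were not called in any comparison with median scaling and all arrays, by their brightest probes. Their differences between surviving and dying neurons were -0.33 ± 0.53 for Kcna1, 1.05 ± 0.71 for Kcnd2 and -1.07 ± 0.51 for Kcnd3. That of Kcnd2 rested on dying replicate 1: its levels were 5.37 and 5.04 in surviving neurons and 3.21 and 5.10 in dying ones. Dying replicate 2 thus lay within the surviving range, and over all settings the difference of Kcnd2 ran from 0.106 to 1.998. For Kcnc1, with 1 of 2 dying arrays above background, no direction is given: the fitted 0.88 ± 1.04 turned to -0.83 without the undetected dying replicate 1, and the ratio was 0.979 with that array at its limit. The 2 probes of Kcna1 disagreed: the dimmer, above background on all arrays, gave 1.31 between surviving and dying neurons and was called lower in dying neurons than in sham (-2.94, adjusted p = 0.0240), where the brighter gave -1.11 (adjusted p = 0.113).

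Silent subunits do not form channels alone but join Kv2 subunits and change their gating. Of 10 genes 5 were tested in dying against sham, and 3 fell while 0 rose. Kcnv1, the Kv8.1 subunit, had levels of 7.68 and 7.16 in sham, 6.93 and 6.60 in surviving neurons and 4.85 and 5.56 in dying ones. Dying neurons lay lowest on both arrays, 4.64-fold below sham (-2.21 ± 0.52, adjusted p = 0.0116). Kcng1, the Kv6.1 subunit, had levels of 1.87 and 2.61 in sham, 2.19 and 2.74 in surviving neurons and -0.10 and 0.73 in dying ones. Surviving and sham arrays overlapped while both dying arrays lay below them, 3.80-fold under sham (-1.93 ± 0.59, adjusted p = 0.0303). The naive levels of Kcng1, 0.16 and 1.33, overlapped with those of dying neurons. Kcns3, the Kv9.3 subunit, had levels of 4.42 and 4.28 in sham, 2.96 and 3.61 in surviving neurons and 2.36 and 1.94 in dying ones (4.61-fold lower in dying than in sham, adjusted p = 0.0302), and its naive levels of 2.75 and 4.77 spanned the surviving range.

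Between surviving and dying neurons, 7 of 8 silent subunits tested had a difference above 0, as 55.9% of all probes did, with 2 at an unadjusted p under 0.05, Kcng1 (2.15 ± 0.60, 4.44-fold, adjusted p = 0.132) and Kcnv1 (1.56 ± 0.52, 2.95-fold, adjusted p = 0.159). Neither was called, and Kcng1 was called without dying replicate 2, at a difference of 2.56. The calls against sham were lost without sham replicate 1 for Kcnv1 (-1.95), Kcng1 (-2.29) and Kcns3 (-2.13), without sham replicate 2 for Kcng1 (-1.56) and Kcns3 (-2.27), without dying replicate 1 for Kcnv1 (-1.86), Kcng1 (-1.51) and Kcns3 (-2.41) and without dying replicate 2 for Kcns3 (-1.99). The median over the silent subunits in dying against sham, -1.93, turned to 0.10 without dying replicate 1, a fit in which other members of the list passed the filter on background.

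**Figure D3:**
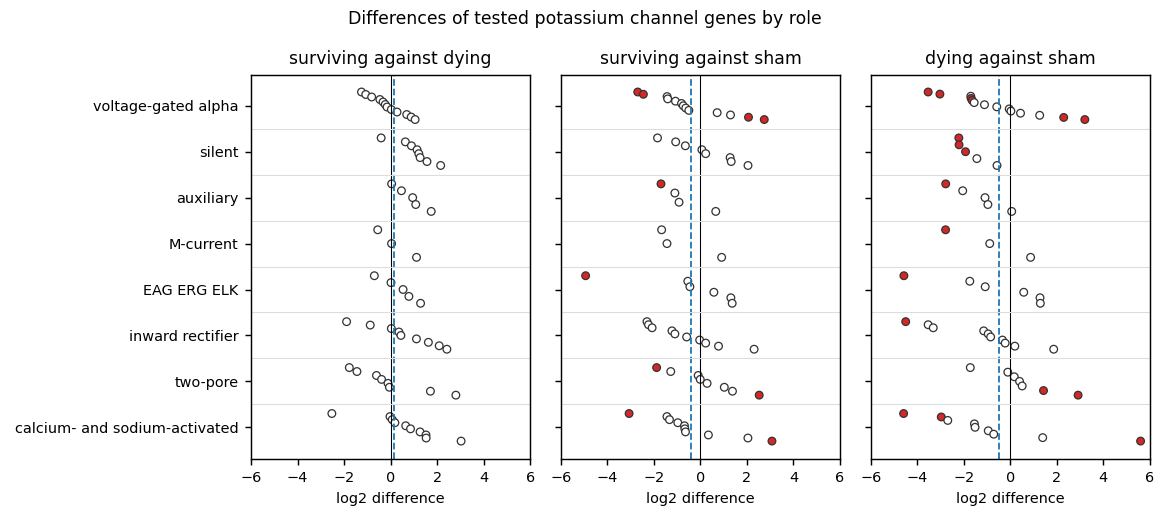
Log2 difference (horizontal axis) of each tested potassium channel gene, by role, in 3 comparisons; filled points were called by limma, and the broken line marks the median of all probes tested. No point is filled between surviving and dying neurons.

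Auxiliary subunits bind to the inner face of voltage-gated channels or span the membrane beside them. Of 10 genes 5 were tested in dying against sham, and 1 fell while 0 rose. That gene was Kcnab1, a Kv beta subunit that speeds the inactivation of Kv1 channels. Its levels were 1.78 and 2.49 in naive, 2.48 and 2.49 in sham, 0.95 and 0.63 in surviving neurons and -0.44 and -0.14 in dying ones. The 4 arrays of injured rats lay below all naive and sham arrays, with the dying arrays lowest. Kcnab1 was 6.86-fold below sham in dying (-2.78 ± 0.47, adjusted p = 0.00378) and 3.25-fold below in surviving neurons (-1.70 ± 0.47, adjusted p = 0.0424). The call in surviving neurons was lost without any 1 of the 4 arrays compared, with differences from -1.53 to -1.86. It did not hold under all of the other scalings either, and over all settings the difference ran from -1.89 to -0.55. Kcnab2, another beta subunit, had levels of 1.05 and 2.55 in naive, 1.72 and 1.74 in sham, 2.48 and 2.29 in surviving neurons and -0.21 and 1.49 in dying ones. It was 3.35-fold higher in surviving than in dying neurons (1.74 ± 0.70, adjusted p = 0.211), which was not a call. The difference was 0.90 without dying replicate 1 and 2.59 without dying replicate 2. Kcnip2, a calcium-binding partner of Kv4 channels, had a difference of 0.46 ± 0.88 between surviving and dying neurons, with 1 of 2 surviving arrays above background, which turned to -1.04 without surviving replicate 1.

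Subunits of the M-current, a slow current that muscarinic receptors close, and of the EAG, ERG and ELK channels are the Kcnq and Kcnh genes. Of the 5 Kcnq genes 3 were tested against sham. Kcnq3 had levels of 5.39 and 4.23 in sham, 2.64 and 3.63 in surviving neurons and 0.97 and 3.08 in dying ones. It fell in dying neurons (-2.78 ± 0.90, 6.89-fold, adjusted p = 0.0368), a call lost without sham replicate 1 (-2.20), sham replicate 2 (-3.37) or dying replicate 1 (-1.73), and naive replicate 1, at 2.31, also lay below both sham arrays. Kcnq5 was read differently by its 2 probes: between surviving and dying neurons the brighter gave -0.56 and the dimmer 2.81, so that no direction is given for it. Against sham the dimmer was called lower in dying neurons (-2.90, adjusted p = 0.0120), with 1 of 2 dying arrays above background, and the brighter was not (-0.88, adjusted p = 0.277). The brighter probe itself turned to 0.37 without surviving replicate 1.

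Kcnh2 encodes the ERG1 channel, known for repolarising the heart and for limiting firing in some neurons. Its levels were 2.66 and 2.41 in naive, 2.13 and 2.90 in sham, -3.46 and -1.40 in surviving neurons and -2.75 and -1.38 in dying ones. All 4 uninjured arrays were high and all 4 injured arrays low, and 1 of 2 arrays was above background in each injured group. Kcnh2 was 30.7-fold lower in surviving than in sham neurons (-4.94 ± 0.77, adjusted p = 0.00837) and 23.9-fold lower in dying neurons (-4.58 ± 0.76, adjusted p = 0.00358) by the measured signal, and at least 20.6-fold and 14.8-fold lower with the undetected arrays at their limit. The call in surviving neurons was lost without sham replicate 1 (-5.33), sham replicate 2 (-4.55) or surviving replicate 1 (-3.92). Among the Kcnh genes it was 1 of 6 tested to be called in dying neurons and 1 of 6 in surviving neurons, in both cases as a fall. Between surviving and dying neurons limma called 0 of 5, with 0 at an unadjusted p under 0.05.

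Inward rectifiers pass potassium best near the resting potential. Of 15 Kcnj genes 10 were tested in dying against sham, and 1 fell while 0 rose. This gene was Kcnj6, the Girk2 subunit of channels that G-protein-coupled receptors open. Its levels were 5.43 and 6.05 in naive, 6.37 and 5.97 in sham, 4.51 and 3.68 in surviving neurons and 0.37 and 2.98 in dying ones. Dying arrays lay below surviving arrays, which lay below all uninjured arrays, and the dying replicates were themselves far apart. Kcnj6 was 22.6-fold below sham in dying neurons (-4.50 ± 0.81, adjusted p = 0.00466). Without dying replicate 2 Kcnj6 differed from sham by -5.81, and without dying replicate 1 by less than -4.50 in size. In surviving neurons it was 4.23-fold below sham (-2.08 ± 0.82, adjusted p = 0.109), which was not a call. Between surviving and dying neurons the difference of 2.42 ± 0.82 (5.35-fold, adjusted p = 0.162) was not called. It was 3.73 without dying replicate 2 and is smaller than 2.42 without dying replicate 1. Dying replicate 2, at 2.98, lay nearer to the surviving arrays than dying replicate 1 did. The study's tables also list Kcnj6 as higher in surviving than in dying neurons, as a ratio.

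The other Girk subunits did not pass the test in any comparison with median scaling and all arrays. Kcnj3, the usual partner of Kcnj6 in neurons, had levels of 1.36 and 2.50 in sham, 0.77 and 1.91 in surviving neurons and 1.32 and 0.65 in dying ones, and a second of its 4 probes, undetected in sham, pointed the other way in surviving neurons (at least 3.05-fold above sham, adjusted p = 0.0548, where the brighter probe gave -0.60). Its difference between surviving and dying neurons was 0.36 ± 0.97, which turned to -0.22 without surviving replicate 2. Kcnj5 had levels of 0.80 and 1.34 in sham and lay below background on both dying arrays, at least 6.94-fold under sham but without a call (adjusted p = 0.0589). Kcnj9, the Girk3 subunit, had levels of 1.13 and 0.64 in naive, -2.48 and 0.26 in sham, 1.05 and 1.34 in surviving neurons and 0.61 and 0.90 in dying ones. Sham replicate 1 stood apart from the other 7 arrays and was not above background. The differences from sham, 2.31 ± 0.81 in surviving and 1.87 ± 0.80 in dying neurons, were not called with median scaling and all arrays, and were at least 2.33-fold and 1.72-fold with that array at its limit. They were called in the authors' series values (2.81 and 2.29), with scaling to probes above background on all arrays (3.16 and 2.77) and without sham replicate 2 (3.68 and 3.24), where the remaining sham array was the undetected one. The ATP-sensitive subunit Kcnj11 (-0.88 ± 0.51) and the strong rectifier Kcnj12 (1.11 ± 0.55) did not pass the test between surviving and dying neurons either, though neither gene's groups overlapped.

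Two-pore channels carry the leak current of resting neurons. Of 10 Kcnk genes 7 were tested in dying against sham, of which 2 rose and 0 fell, and 8 in surviving against sham, of which 1 rose and 1 fell. Kcnk3, the acid-sensitive TASK-1 channel, had levels of -2.81 and -2.74 in naive, -2.29 and -2.07 in sham, 0.11 and 0.58 in surviving neurons and 1.20 and 0.27 in dying ones. It was undetected on all 4 uninjured arrays and detected on all 4 injured arrays. The bound was at least 1.95-fold higher in dying (adjusted p = 0.00387) and at least 1.49-fold in surviving neurons (adjusted p = 0.0168), and the latter call was lost without any 1 of the 4 arrays compared, with fitted differences from 2.29 to 2.76. Kcnk9, the related TASK-3 channel, had levels of 0.97 and 0.36 in sham, 2.24 and 1.84 in surviving neurons and 2.17 and 2.02 in dying ones. It lay above sham on all 4 injured arrays, with a call in dying (1.43 ± 0.46, 2.69-fold, adjusted p = 0.0364) and none in surviving neurons (1.38 ± 0.46, 2.60-fold, adjusted p = 0.0710). The call in dying neurons was lost without sham replicate 1 (1.73), sham replicate 2 (1.12), either surviving array (1.43) or dying replicate 1 (1.35), and in surviving neurons a call was made without either dying array (1.38). The difference in surviving neurons was also called under 4 of the 5 other scalings, at 2.15 with the 75th percentile, 1.74 with quantile normalization, 2.26 in the authors' series values and 2.35 with probes above background on all arrays.

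Kcnk2, the mechanosensitive TREK-1 channel, set surviving neurons apart from the other groups. Its levels were 4.43 and 5.27 in naive, 5.45 and 5.81 in sham, 3.82 and 3.67 in surviving neurons and 5.94 and 5.10 in dying ones. Both surviving arrays were the lowest of the 8. The difference from sham, -1.89 ± 0.52, was called (3.70-fold lower, adjusted p = 0.0428). That call was lost without any 1 of the 4 arrays compared, with differences from -1.70 to -2.07. It did not hold under all of the other scalings, and over all settings the difference ran from -2.08 to -0.79. The difference from dying neurons, -1.78 ± 0.53 (3.43-fold lower, adjusted p = 0.137), was called only without dying replicate 2, at -2.20. Kcnk1, the TWIK-1 channel, had levels of 0.07 and 0.21 in naive, -0.71 and -1.48 in sham, -0.05 and -0.09 in surviving neurons and -3.48 and -2.27 in dying ones. It was undetected on the sham and dying arrays and was at least 3.14-fold higher in surviving than in dying neurons (adjusted p = 0.107), which was called without dying replicate 2, at a fitted 3.41 against undetected signal. Kcnk4, the TRAAK channel, had levels of 6.09 and 5.90 in surviving neurons and 3.33 and 5.24 in dying ones (3.27-fold, adjusted p = 0.196). Its difference was not called, and was 0.76 without dying replicate 1 and 2.66 without dying replicate 2. The difference between these replicates of 1 group was larger than that between dying replicate 2 and either surviving array.

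Calcium- and sodium-activated channels couple the membrane potential to the calcium or sodium inside the cell. Of 11 genes 9 were tested in dying against sham, of which 1 rose and 2 fell. The median difference was -1.52, the value of Kcnmb1. The sham levels of Kcnmb1 were 2.49 and -0.88, and only 1 of these arrays was above background. Kcnma1 encodes the pore of the BK channel, which calcium and voltage open together and which shapes the end of the action potential. Its levels were 3.42 and 3.65 in naive, 4.26 and 4.26 in sham, 2.86 and 2.78 in surviving neurons and 1.37 and 1.21 in dying ones. The 4 groups did not overlap at any point, with sham highest and dying neurons lowest. Kcnma1 was 7.83-fold below sham in dying neurons (-2.97 ± 0.43, adjusted p = 0.00243). The difference in surviving neurons, -1.44 ± 0.43 (2.72-fold lower, adjusted p = 0.0509), fell short of a call and became one without either dying array and with probes above background on all arrays compared (adjusted p = 0.0455). Between surviving and dying neurons the difference of 1.53 ± 0.43 (2.88-fold higher, adjusted p = 0.132) was not called in any fit that left out 1 array. With the mean over its 2 probes, of which the dimmer was undetected on all injured arrays, it was 0.36. The difference between surviving and sham neurons was then -2.81. Sham neurons read 1.66-fold above naive neurons for this gene (0.73 ± 0.41, adjusted p = 0.851), so that part of the distance from sham lies above the naive level.

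Kcnn2 encodes SK2, a small-conductance calcium-activated channel that damps firing and synaptic responses. Its levels were 2.14 and 2.66 in naive, 3.50 and 2.51 in sham, -0.12 and -0.02 in surviving neurons and -3.02 and -0.15 in dying ones, where 1 of 2 arrays was above background. All 4 injured arrays lay below all uninjured arrays, and dying replicate 2 lay close to the surviving arrays. Kcnn2 fell 24.1-fold in dying by the measured signal (-4.59 ± 0.86, adjusted p = 0.00530; at least 13.6-fold with the undetected array at its limit) and 8.40-fold in surviving neurons (-3.07 ± 0.87, adjusted p = 0.0457). Without dying replicate 2 the difference in dying neurons was -6.02. Without dying replicate 1 it is close to that in surviving neurons, as dying replicate 2 lay close to the surviving arrays. In dying neurons the call was lost without sham replicate 1 (-4.09), and in surviving neurons without any 1 of the 4 arrays compared or either naive array, with differences from -2.57 to -3.57. Against dying neurons Kcnn2 (1.52 ± 0.87) and Kcnn1 (3.03 ± 1.42) were called only without dying replicate 2, at a fitted 2.95 and 5.77 against the lone and undetected dying replicate 1. With that array at its limit and both dying arrays kept they were at least 1.62-fold and 4.23-fold higher in surviving neurons. For Kcnn1 the levels were 2.36 and 2.64 in surviving neurons and -3.27 and 2.21 in dying ones, so that dying replicate 1 alone lay far below the rest.

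**Figure D4:**
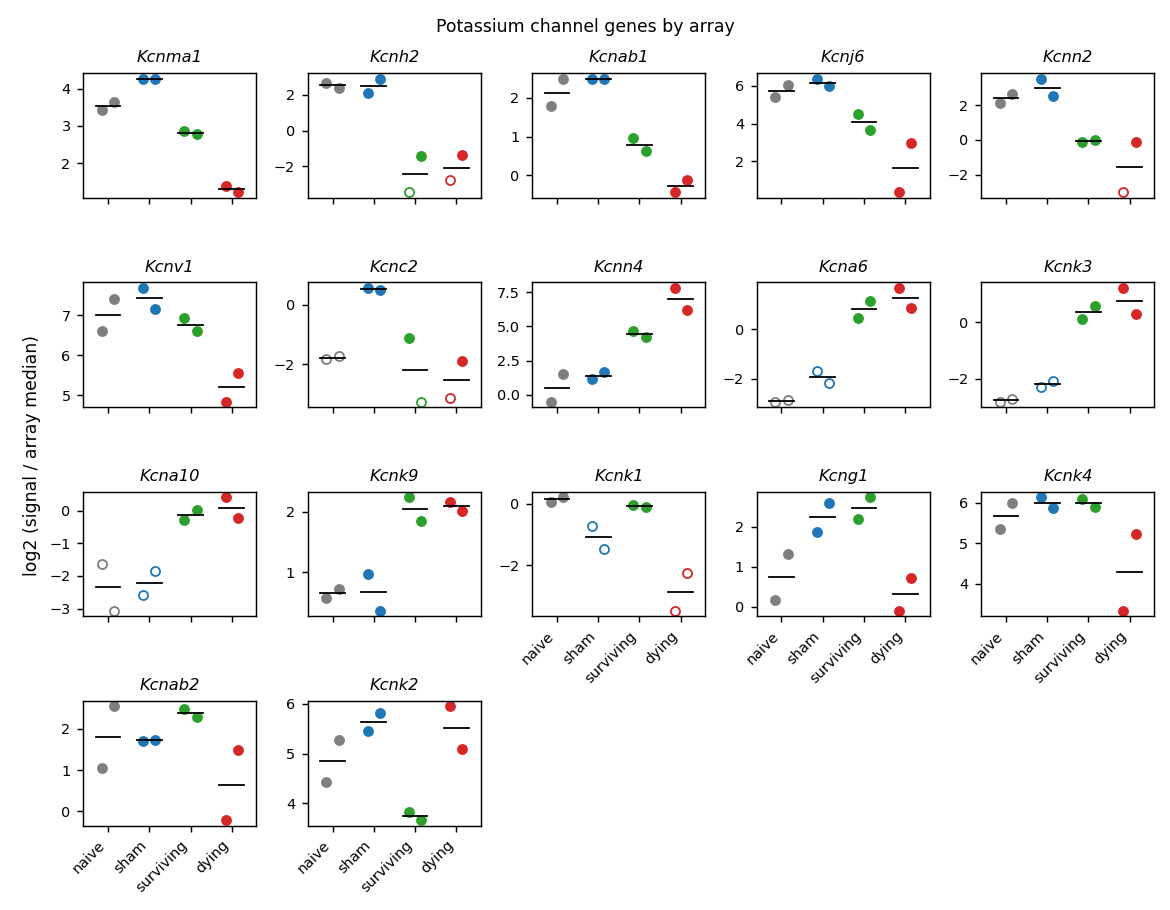
Level (vertical axis, log2 of signal over the array median) of 17 potassium channel genes on the 8 arrays; open points are not well above background and bars are group means. Kcnma1 separates all 4 groups, and Kcna6, Kcnk3 and Kcna10 are open in naive and sham and filled in injured rats.

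Kcnn4 encodes KCa3.1, the intermediate-conductance channel that is known from activated microglia, macrophages, lymphocytes and erythrocytes. Its levels were -0.49 and 1.53 in naive, 1.13 and 1.67 in sham, 4.69 and 4.26 in surviving neurons and 7.79 and 6.22 in dying ones. The 3 sets of uninjured, surviving and dying arrays did not overlap. Kcnn4 rose 48.7-fold in dying (5.60 ± 0.77, adjusted p = 0.00210) and 8.43-fold in surviving neurons (3.08 ± 0.78, adjusted p = 0.0335) against sham. The call in surviving neurons was lost without any 1 of the 4 arrays compared, with differences from 2.80 to 3.35. Surviving neurons lay 5.77-fold below dying neurons (-2.53 ± 0.78, adjusted p = 0.144), which was not a call and became one without dying replicate 2, at -3.32.

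The summed markers of microglia and macrophages and of leukocytes were, like Kcnn4, highest on the dying arrays, as the plot of summed marker signal by array shows. The summed signal of 10 microglia and macrophage markers, in units of the array median, was 122 and 256 in naive, 270 and 258 in sham, 458 and 485 in surviving neurons and 2388 and 1057 in dying ones. Dying replicate 2 lacks Lgals3, whose spot there was marked non-uniform, and with that marker left out of every array the sums were 264 and 242 in sham, 306 and 338 in surviving neurons and 1935 and 1057 in dying ones. The brightest probe was that of C1qa on average and that of C1qb on both dying arrays, and Ptprc was undetected on all arrays but 1. In dying against sham 5 of 8 tested markers rose and 0 fell, with 4 calls without sham replicate 1, sham replicate 2 or dying replicate 1. In surviving against sham 1 of 9 rose, with 0 calls without sham replicate 1 or either surviving array, and 3 higher and 1 lower without either dying array. The 9 leukocyte markers summed to 9.85 and 9.41 in naive, 9.50 and 9.33 in sham, 16.0 and 16.2 in surviving neurons and 48.2 and 37.6 in dying ones, with the probe of Cd3d brightest and Cd4 undetected on every array. The 4 of 9 leukocyte markers tested in dying against sham were called higher, a count of 1 without either sham array or dying replicate 1. Of these 4, S100a8, S100a9 and Cd8a were undetected on both sham arrays and entered the test only through the dying arrays, so that only a rise could be seen. S100a9 was above background on naive replicate 1, at 1.77, beside 1.97 and 2.22 on the dying arrays. The part of other cells in the level of Kcnn4, and in that of any other potassium channel gene, was not tested. In pools of captured tissue, fewer cells of a type and less RNA per cell cannot be told apart.

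**Figure D5:**
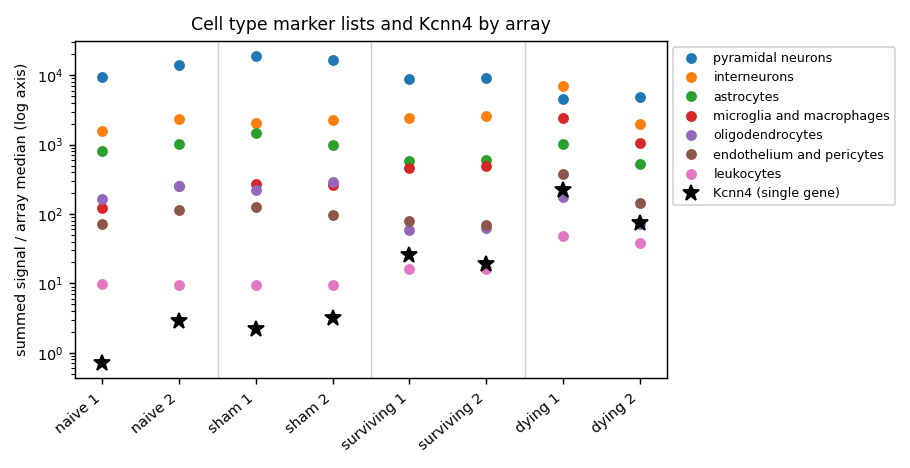
Summed signal of 7 lists of cell type markers on each array, in units of the array median on a log axis, with the signal of Kcnn4 as stars. The sums of microglia and of leukocyte markers and the signal of Kcnn4 were highest on the dying arrays.

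The remaining marker lists bear on what the pools held. The 10 pyramidal neuron markers with a probe summed to 9533 and 14014 in naive, 18918 and 16338 in sham, 8819 and 9088 in surviving neurons and 4487 and 4888 in dying ones. The probe of Nrgn was the brightest, all 10 were detected on both surviving arrays and 9 on both arrays of the other groups, and 3 of 10 fell in dying neurons. That count was 1 without sham replicate 1 and 7 without dying replicate 2. Interneuron markers, with the probe of Cck brightest, summed to 2055 and 2251 in sham, 2439 and 2556 in surviving neurons and 6964 and 1985 in dying ones. Gad1, undetected on both dying arrays, could only be seen to fall, and with it 2 of 8 fell in dying neurons. That count was 1 without either sham array, either surviving array or dying replicate 1, and 1 to 3 of these markers rose and 1 fell under the other scalings. Of the rest, the astrocyte markers (brightest probe, Slc1a3) gave 1486 and 1003 in sham, 588 and 602 in surviving neurons and 1030 and 520 in dying ones, with 3 of 6 lower in dying neurons and 0 without sham replicate 1. Oligodendrocyte markers (brightest probe, Mog) gave 225 and 290 in sham, 58.2 and 63.5 in surviving neurons and 175 and 72.7 in dying ones, with 1 of 5 lower in dying neurons and 0 without either sham array, either surviving array or dying replicate 2. Markers of endothelium and pericytes (brightest probe on average, Kdr) gave 125 and 97.9 in sham, 78.9 and 70.0 in surviving neurons and 383 and 143 in dying ones, with 2 of 7 higher in dying neurons, 0 without sham replicate 1, 1 without sham replicate 2 or dying replicate 1 and 4 without dying replicate 2. One of the 2, Flt1, was undetected on both sham arrays, so that only a rise could be seen.

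Other channels known mainly from glia, vessels or immune cells did not pass the test with median scaling and all arrays. The astrocyte channel Kcnj10 was above background on naive replicate 1 alone, and Kcnj2 on no array. Kcnj16, its partner in astrocytes, had levels of 1.87 and 1.77 in sham, -1.19 and 0.36 in surviving neurons and 2.62 and 0.34 in dying ones. Surviving and dying arrays overlapped, and the difference of -1.90 ± 0.82 was not called. It was -3.03 without dying replicate 2 and is smaller in size than -1.90 without dying replicate 1, as dying replicate 2 lay within the surviving range. The microglial two-pore channel Kcnk13 read lower on both surviving arrays than on either dying array, with a difference of -1.45 ± 1.02, and Kcnk6 had a difference of -0.61 ± 0.53. The lymphocyte channel Kcna3 had levels of -1.78 and -2.22 in surviving neurons and -0.68 and -0.81 in dying ones, the 1 group in which both arrays were above background (-1.26 ± 0.81, adjusted p = 0.405). The vascular ATP-sensitive subunit Kcnj8 had levels of 2.88 and 3.18 in surviving neurons and -0.19 and 3.01 in dying ones, where the replicates of 1 group were further apart than the groups (1.62 ± 1.24). Without dying replicate 1 the difference was 0.019.

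Partners of potassium channels without the Kcn prefix were read from a list of 43 genes, of which 34 had a probe. In dying against sham 1 of 33 tested rose and 13 fell, and in surviving against sham 1 rose and 4 fell, beside the shares of all probes given above. Between surviving and dying neurons limma called 0 of 31, with 6 higher and 0 lower at an unadjusted p under 0.05, beside 10.8% and 10.3% of all probes. Without sham replicate 1 the counts in dying neurons were 0 and 5, and the 5 were Dpp6, Gnai1, Rgs7, Calm2 and Lgi1. Gnai1 was above background on the sham arrays alone, so that only a fall could be seen, and the bound was at least 4.20-fold. Under the other scalings 1 to 6 partners rose and 10 to 11 fell in dying neurons. Without either sham or either surviving array the counts in surviving neurons were 0 and 0, and without either dying array they were 1 and 9.

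Of these partners, Dpp6, the transmembrane subunit that brings Kv4 channels to the surface, had levels of 3.20 and 2.42 in sham, 2.46 and 1.77 in surviving neurons and -1.38 and -0.01 in dying ones. Dying arrays were far below the others, with 1 of 2 above background (-3.50, adjusted p = 0.00406). Lgi1, a secreted protein that slows the inactivation of Kv1 channels, had levels of 6.65 and 6.01 in sham, 4.51 and 3.91 in surviving neurons and 1.57 and 3.06 in dying ones. Its groups stepped down from sham through surviving to dying neurons without overlap (dying against sham, -4.02, adjusted p = 0.00273). Rgs7, which speeds the closing of Girk channels, had levels of 8.44 and 8.28 in sham, 6.02 and 6.06 in surviving neurons and 5.24 and 4.91 in dying ones (dying against sham, -3.29, adjusted p = 0.00190). Calm2, a calmodulin gene, whose protein is the calcium sensor of SK channels, had levels of 10.65 and 10.28 in sham, 8.91 and 8.77 in surviving neurons and 7.26 and 7.79 in dying ones (dying against sham, -2.94, adjusted p = 0.00343). The muscarinic receptor Chrm1, whose activation closes M-channels, was the 1 partner that rose, with levels of -1.58 and -1.36 in sham, 0.60 and 0.97 in surviving neurons and 1.26 and 0.63 in dying ones. It was undetected on both sham arrays and at least 2.25-fold higher in dying neurons (adjusted p = 0.00605), a call lost without sham replicate 1.

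Sham against naive rats asks what surgery alone did. limma called 0 of 52 tested genes, as it called 0% of 20739 probes, and the smallest adjusted p was 0.851. At an unadjusted p under 0.05 there were 3 genes higher and 2 lower in sham, against 4.04% and 0.849% of all probes. Both sham arrays lay above both naive arrays for 13 genes and below for 7, against 39.4% and 4.63%, and the median difference was 0.38, beside 0.40 over all probes tested. That median turned to -0.03 with quantile normalization and -0.07 with scaling to the probes above background on all arrays. It was 0.025 without naive replicate 1 and 0.64 without naive replicate 2, beside 0.030 and 0.64 over all probes. In a fit of the 4 arrays of that slide alone 2 genes were called, both higher in sham, Kcnc2 (a fitted 2.28, at least 2.53-fold) and the two-pore channel Kcnk13 (a fitted 3.07, with 1 of 2 naive arrays above background, at least 3.96-fold), beside 1.26% of all probes. Both entered that test only through sham. For Kcnc2 the naive levels of -1.83 and -1.72 were below background and the sham levels of 0.55 and 0.47 above it, and for Kcnk13 they were 0.56 and -2.97 in naive and 2.26 and 1.47 in sham.

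Finally, a filter adapted from the study's methods was applied between surviving and dying neurons, to probes whose replicates lay within 1.5-fold of each other. Those methods ask for changes over 2-fold from sham, and the study's results also count genes over 2-fold between dying and surviving neurons. Of the 86 genes 47 were above background on all 4 arrays of injured rats, and 9 of these had replicates that close in both groups. Over 2-fold higher in surviving neurons were 2 genes, Kcnab1 (ratio 2.12) and Kcnma1 (ratio 2.88), against 2.84% of 21262 probes. Over 2-fold lower was 1, the A-type subunit Kcnd3 (ratio 0.476), against 2.13%. In the authors' series values the same filter gave 1 higher and 2 lower. This rule carries no test, and its count of 3 became 4 without surviving replicate 1, 7 without surviving replicate 2 or dying replicate 1 and 20 without dying replicate 2, where the lone array of a group has no replicate to be set against. The cause of these changes was not tested.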

How the data were processed

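RNA of laser-captured CA3 neurons was measured on 8 arrays, 2 each for naive, sham, surviving and dying neurons. For amplification the methods give MessageAMP II, whereas the labels allow either that kit or RiboAmp HS for every pool. The authors obtained the deposited spot intensity from Agilent Feature Extraction 9.1.3.1, which subtracts background and spatial trends within an array and does not normalize between arrays. The deposited marks of 0 or 1 per spot, given by the authors in other columns, say which spots are well above background or non-uniform. The signal in the authors' series table equals that processed intensity divided by 1 constant per array, with a floor.

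Here spots marked non-uniform were dropped, the others averaged per probe, each array divided by its median, values under 0.01 set to 0.01 and log2 taken. A gene was read from its brightest probe over the 8 arrays. A model with 1 coefficient per group was fitted to all 8 arrays with limma 3.58.1 in R 4.3.3 (lmFit, eBayes, 4 residual degrees of freedom), checked on simulated data. A probe was tested where it was well above background on both replicates of 1 or both groups compared, and p-values were adjusted over all such probes by the Benjamini-Hochberg method, with a call under 0.05. They measure the spread between these pools, not between rats. Where a fit leaves out an array, the lone array of its group is taken to scatter as the other groups do. A fold is a bound where no array of a group was above background, with those arrays set at the lowest signal of a probe well above background, or at the gene's own signal where higher. Medians of the family were the same with such genes at their bound.

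Named are, by p among genes whose arrays do not overlap, up to 10 genes per direction between surviving and dying neurons, 8 against sham and 3 against naive, with lists of Girk, hippocampal and glial or immune genes and every called gene, apart from some that are not reported here. Members and lists were chosen with earlier results of these data known. The number of arrays limits the precision. Figures used matplotlib 3.10.9, tables pandas 2.3.3.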

Additional observations from a re-analysis of the deposited data

How the results depend on the processing

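What these arrays can show is limited by 2 pools per group, by signal over background that was weakest in sham, and by a slide that cannot be told apart from injury. Settings tried were other scalings, a normexp correction, the authors' series values, a floor of 0.05, kept non-uniform spots, other filters, the mean over probes, the brightest RefSeq probe, arrays of 1 slide, a replicate block and each array left out. Added after seeing the data were scaling to probes above background on all arrays, scaling to RefSeq probes and a crossed block.

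Among named genes, no call against sham changed direction under any setting; 77 of 430 values in dying against sham and 85 of 322 in surviving against sham missed the threshold where the gene had been called, and 8 and 23 passed it where it had not. The floor changed 0 of these calls. For surviving against dying the count of calls was 0 in limma under every setting with all arrays, with 7 higher and 3 lower at an unadjusted p under 0.05 with median scaling, and lay between 0 and 13 with 1 array left out. Its unadjusted counts were 2 higher and 0 lower with the normexp correction and 3 higher with scaling to RefSeq probes, and with 1 array left out 3 to 20 higher and 1 to 5 lower. The median difference lay between 0.09 and 0.60, and the count over 2-fold between 4 and 20, with 1 array left out.

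In surviving against sham the 10 calls became 0 with the normexp correction, 6 with probes above background on all arrays compared, 5 with no filter on background and 6 with the replicate block, and 0 to 17 with 1 array left out. In dying against sham the 18 calls became 0 with the normexp correction, which called 0 probes of the array, and 7 to 27 with 1 array left out. With the replicate block 18 were called, beside 40.3% of all probes. In sham against naive 2 were called with the arrays of 1 slide alone, and 0 with any 1 array left out. The causes of these changes were not tested.

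Surviving neurons were captured only beside dying ones, so that pools of the 2 groups may share rats. The labels do not say which pools match, and replicates of surviving and dying neurons were taken as unpaired. The difference between replicates 1 and 2 correlated at -0.1945 between these groups over 15254 probes, and between -0.06 and 0.07 for the other pairs of groups; probes are not independent replicates. A crossed block, with the numbers of the dying arrays exchanged, gave 0, 7, 19 and 0 calls in the 4 comparisons. Of all probes it called 0%, 13.2%, 41.5% and 0%.

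The median difference from sham of surviving neurons turned to 0.16 with the 75th percentile, 0.24 with quantile normalization, 0.12 with the normexp correction, 0.27 in the authors' series values and 0.36 with probes above background on all arrays, where that of dying neurons turned to 0.061. The median of sham against naive turned to -0.031 with quantile normalization and -0.066 with probes above background on all arrays. Among named genes the changes of sign were between surviving and dying neurons, in genes not called. With the normexp correction they were Kcnd3 (0.24), Kcna4 (0.25), Kcnj11 (0.50), Kcnk6 (0.47), Kcna1 (1.34), Kcnc1 (-0.21), Kcnq5 (0.79), Kcnn2 (-0.013) and Kcnk9 (0.53). With the mean over probes they were Kcnk6 (0.46), Kcna1 (0.49) and Kcnq5 (1.13), and with the brightest RefSeq probe Kcnq5 (2.81). Kcnk9, near 0 throughout, turned to 0.0041 with the 75th percentile, 0.0068 with quantile normalization and 0.021 in the series values. With RefSeq probes Kcnn3 turned to -0.28. With 1 array left out the lowest and highest differences were -0.22 and 0.93 for Kcnj3, -0.83 and 2.59 for Kcnc1, -1.04 and 1.96 for Kcnip2, -1.48 and 0.37 for Kcnq5, -0.26 and 0.40 for Kcnn3 and -0.25 and 0.15 for Kcnk9. The cause was not tested for any of these.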
